A study of Homo sapiens with 4 samples.

Results

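The comparison set KGN cells that received siRNAs against YAP and TAZ together with 8Br-cAMP (siYT+8Br-cAMP) against cells that received control siRNA and no drug (siNC). It therefore shows the summed distance between the doubly treated and the untreated state, and it does not separate the treatments. Its members were all probe sets that carry exactly 1 gene symbol in the platform annotation, which are 41097 of 54675. They stand for 19775 genes, of which 14427 were above the floor described below on at least 1 of 4 arrays and were compared. The other 5348 genes were below it on every array and have no difference here.

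KGN is an established human cell line that originated in a granulosa cell tumour of the ovary. The siNC cells were given control siRNA at 10 nM, and the siYT+8Br-cAMP cells were given YAP siRNA and TAZ siRNA at 5 nM of each. The medium was exchanged 48 h after transfection, in the second case for medium with 0.5 mM 8Br-cAMP, and RNA was taken 24 h later. The remaining arrays held each treatment alone, as control siRNA with 0.5 mM 8Br-cAMP (siNC+8Br-cAMP) and as both siRNAs without drug (siYT). Every group was a single array from 1 culture of 1 line, so no difference given here has a replicate or a test, and all are sizes on these arrays.

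YAP and TAZ are transcriptional co-activators that enter the nucleus when the Hippo kinases are inactive and bind DNA through the TEAD factors. They drive genes of growth, matrix and the cytoskeleton. 8Br-cAMP is a membrane-permeable form of cyclic AMP, the messenger that gonadotropins raise in granulosa cells. Cyclic AMP activates protein kinase A, which phosphorylates the transcription factor CREB. In the ovary this signal accompanies ovulation and the turn of granulosa cells from division to steroid production.

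Values are probe set intensities on a linear scale. Intensities below 62.6, the median of the whole table (log2 5.97), were set to that floor, and differences are given as log2 of siYT+8Br-cAMP minus log2 of siNC. Genes were called higher or lower where the difference reached 2-fold, which is 1 on the log2 scale. Where 1 of both arrays was at the floor, the fold can only be bounded from below, and it is given as at least that size. Where 4 intensities are listed, siNC comes first, followed by siNC+8Br-cAMP, then by siYT and last by siYT+8Br-cAMP. Probe sets whose identifier marks them as binding more than 1 transcript are called shared.

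The siYT+8Br-cAMP array stood apart from the other 3, and since it is 1 side of the comparison it cannot be left out. Among genes above the floor on all arrays, 475 were at least 2-fold below all 3 other arrays on it and 121 were 2-fold above. The same counts were 161 and 178 for siNC, 59 and 42 for siNC+8Br-cAMP and 54 and 96 for siYT. The ratio of 3' to 5' control probe signal was 1.35 for ACTB on this array against 1.07 to 1.14 on the others, and 1.13 for GAPDH against 0.89 to 0.96. The part of RNA quality in the differences was not tested. Log2 differences of probe sets of the same gene varied about their mean with an SD of 0.59 here, over 7501 probe sets of 3019 genes. Only probe sets above 4 times the floor on all 4 arrays entered, so dimmer ones are not covered. The SD was 0.39 for siYT against siNC and 0.37 for siNC+8Br-cAMP against siNC. This spread contains no variation between cultures.

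Granulosa markers were checked on both arrays. FOXL2, the defining granulosa transcription factor, read 659 in siNC and 1765 in siYT+8Br-cAMP, and GATA4 read 860 and 1610. The inhibin subunit INHBA read 17150 and 33512. The orphan receptor NR5A2 went the other way, with 74.2 in siNC and 49.2, below the floor, in siYT+8Br-cAMP. The follicle-stimulating hormone receptor FSHR, the steroidogenic factor NR5A1 and the anti-Müllerian hormone receptor AMHR2 were below the floor on every array. Markers of other cells were mixed. In theca, CYP17A1 and LHCGR were below the floor on every array, while INSL3 read 156 in siNC and 268 in siYT+8Br-cAMP. In endothelium, CDH5 and VWF were below it throughout, while PECAM1 read 144 and 233. EPCAM and CDH1 of epithelium were below it throughout, and KRT5 read 5.37 and 66.9. Of the leukocyte markers, PTPRC read 9.14 and 80.0, CD14 94.3 and 7.06, and CD3E was below the floor on both arrays. SOX9, a Sertoli marker, read 271 and 248, while DMRT1, another, was below the floor on every array. The oocyte markers GDF9 and DAZL were below it on both arrays. The neuronal SNAP25 read 838 on both, but 2 of its 3 measured probe sets were at least 2-fold higher in siYT+8Br-cAMP. SYP, also neuronal, was below the floor on every array. The globin HBB read 77.3 and 119. Fibroblast markers did not move together. COL1A1 read 35932 and 6926, DCN 165 and 876 and PDGFRA 553 and 687. The part of other cell types in the differences was not tested.

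Promoter sequence is shown for 8 genes of 3 groups on which the treatments bear, YAP/TAZ targets, cyclic AMP responsive genes and mitotic genes, each known to be read through short DNA elements. The stretches come from RefSeq (GRCh38.p14), run 5' to 3' in the direction of transcription and lie within the 250 bases before the annotated start. Genes, stretches and elements were chosen after the values and a larger number of promoters had been looked at, so they illustrate and test nothing. For ANKRD1 (chr10:90921198-90921317, minus strand) and CCN2 (chr6:131951453-131951552, minus strand), both YAP/TAZ target genes that were lower, capitals mark CATTCC, the TEAD recognition letters, on either strand.
ANKRD1: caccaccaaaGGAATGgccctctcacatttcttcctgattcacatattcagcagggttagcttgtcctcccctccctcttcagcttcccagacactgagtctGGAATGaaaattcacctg
CCN2: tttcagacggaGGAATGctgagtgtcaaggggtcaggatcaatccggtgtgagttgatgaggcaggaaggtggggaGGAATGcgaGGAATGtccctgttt

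For 4 mitotic genes that were lower, CCNB2 (chr15:59105016-59105135, plus strand), CDC20 (chr1:43358861-43358940, plus strand), CEP55 (chr10:93496487-93496526, plus strand) and DLGAP5 (chr14:55191601-55191730, minus strand), capitals mark CCAAT and TTTGAA on either strand. CCAAT is bound by NF-Y, and TTTGAA is the core of the cell cycle homology region through which late cell cycle genes are timed.
CCNB2: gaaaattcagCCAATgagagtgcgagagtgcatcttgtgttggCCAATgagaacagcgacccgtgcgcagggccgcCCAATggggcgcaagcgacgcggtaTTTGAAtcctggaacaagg
CDC20: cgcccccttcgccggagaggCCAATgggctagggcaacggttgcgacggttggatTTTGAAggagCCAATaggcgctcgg
CEP55: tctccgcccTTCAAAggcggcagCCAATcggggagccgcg
DLGAP5: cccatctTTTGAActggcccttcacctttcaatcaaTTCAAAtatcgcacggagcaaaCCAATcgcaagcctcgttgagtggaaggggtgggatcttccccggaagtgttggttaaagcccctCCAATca

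For SIK1 (chr21:43427247-43427356, minus strand) and RASD1 (chr17:17496456-17496535, minus strand), which were higher, capitals mark TGACG, the short form of the cyclic AMP response element that CREB binds, on either strand.
SIK1: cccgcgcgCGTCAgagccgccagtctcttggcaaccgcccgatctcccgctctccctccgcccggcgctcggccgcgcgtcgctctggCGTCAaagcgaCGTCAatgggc
RASD1: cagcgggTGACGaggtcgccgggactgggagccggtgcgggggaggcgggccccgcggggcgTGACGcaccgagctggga

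Over 250 bases before the start, CATTCC occurred in 4 of 15 YAP/TAZ target genes with a promoter in the table (26.7%), against 11.9% of all 27305 promoters. CCAAT occurred in 25 of 32 G2 and M phase genes (78.1%) against 33.0% of all promoters and 34.6% of all genes compared. It was not particular to that list, with 61.1% for steroid synthesis, 60.6% for S phase and 55.6% for ATF4 and amino acid genes. TTTGAA occurred in 19 of 32 G2 and M phase genes (59.4%) against 13.6% and 9.08%. TGACG occurred in 16 of 24 CREB target genes (66.7%) against 21.7%. The full element TGACGTCA, which contains TGACG on both strands, occurred in 3 of 24 (12.5%) against 1.77%. The full element was not particular to that list, with 4 of 32 G2 and M phase genes (12.5%), against 2.75% of all genes compared. These lists were written from genes already known for such regulation. Among all genes compared, TGACG occurred in 28.5%, against 29.8% of the genes that were 2-fold higher and 28.9% of those that were 2-fold lower. CATTCC occurred in 9.75% of all genes compared, 10.1% of those higher and 10.7% of those lower. Another 4 elements were searched: AAGGTCA (3.46% of all promoters), CACGTG (6.49%), ACGTG (18.7%, and contained in CACGTG) and TTGCATCA (0.82%). ACGTG, the core that hypoxia-inducible factors bind, occurred in 14 of 32 glycolysis and hypoxia genes (43.8%), against 22.6% of all genes compared. It was not particular to that list, with 41.7% for CREB target genes, 37.5% for G2 and M phase and 33.3% for YAP/TAZ target genes. TTGCATCA, the form bound by ATF4, occurred in 2 of 27 ATF4 and amino acid genes (7.41%).

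The 2 states differed by 2-fold or more in 3555 genes, 24.6% of those compared. Of all genes compared, 1563 (10.8%) were higher in siYT+8Br-cAMP and 1992 (13.8%) were lower, and the counts of each list below are to be read against these shares. At 4-fold the counts were 264 higher and 481 lower, and at 8-fold 73 and 136. Genes measured on only 1 of the 2 arrays made up 249 of those higher, with siNC at the floor, and 249 of those lower, with siYT+8Br-cAMP at the floor. Over single probe sets, 2952 of 27704 (10.7%) were higher and 3753 (13.5%) lower. Where a gene had several probe sets above the floor, they often did not all pass 2-fold. Every such probe set was 2-fold higher for 228 of 830 higher genes (27.5%) and 2-fold lower for 315 of 1084 lower genes (29.1%). A probe set passed 2-fold in the opposite direction for 37 and 55 of them. Of 179 genes named here that passed 2-fold and also have an unshared probe set, 24 were under 2-fold without shared probe sets. In 8 of these 24, HOPX, GDF15, FPR1, LUM, DCN, TAGLN, ASNS and CBS, the unshared probe sets were at the floor on both arrays and give no difference.

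**Figure D1:**
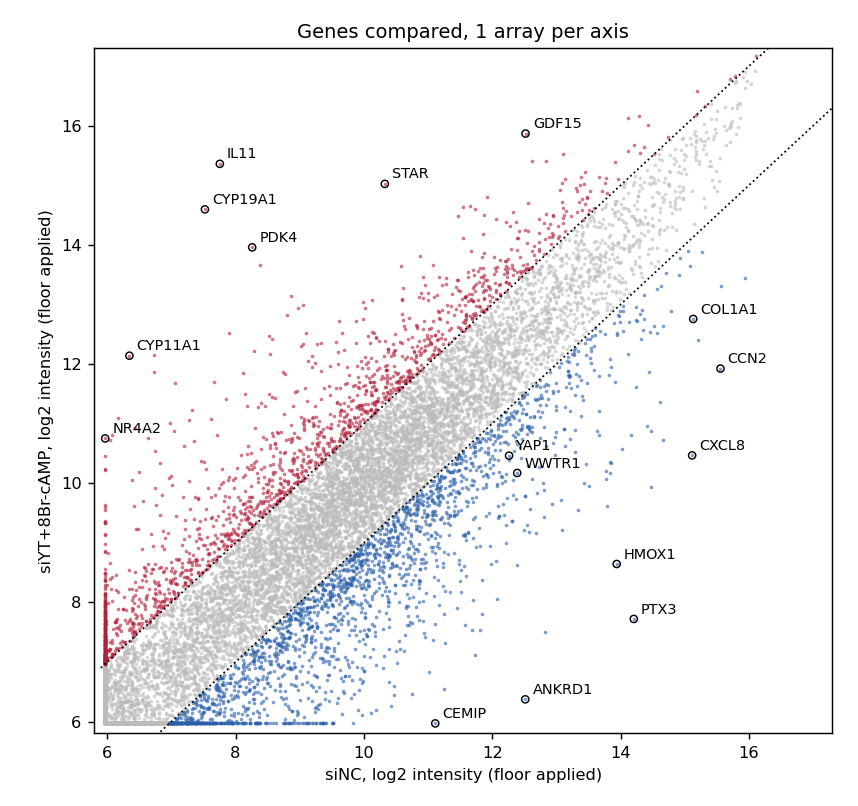
Log2 intensity of each of the 14427 genes compared, with siNC on the horizontal axis and siYT+8Br-cAMP on the vertical axis, both with the floor at log2 5.97 applied. Genes at least 2-fold higher number 1563 and those at least 2-fold lower 1992, and the points along the left and lower edges are genes at the floor on 1 array.

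The siRNA targets were both lower. YAP1 read 4915, 4772, 1295 and 1412 on the 4 arrays, 3.48-fold lower in siYT+8Br-cAMP than in siNC, and its other probe sets were 10.4-fold and 2.83-fold lower. WWTR1, the gene for TAZ, read 5366, 7048, 1028 and 1154, which is 4.65-fold lower, with 2.72-fold and 3.54-fold on its other probe sets. Both siYT arrays lay below both siNC arrays for either gene, as the siRNA labels state.

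Of 22 YAP/TAZ target genes compared, 12 were at least 2-fold lower, 2 were at least 2-fold higher and the median log2 difference was -1.13, beside 0 over all genes. ANKRD1, a nuclear ankyrin-repeat protein and classical YAP target, read 5855, 2581, 292 and 82.9, a 70.7-fold lower value that lay close to the floor. The matricellular proteins CCN1 (25904, 20358, 3087 and 1696) and CCN2 (48232, 44255, 11463 and 3888) were 15.3-fold and 12.4-fold lower. For all 3 genes the siYT array was already well below siNC, and the siYT+8Br-cAMP array was lower again.

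The angiomotin relative AMOTL2, a YAP-binding scaffold, read 10331, 4835, 1081 and 751 (13.8-fold lower). AJUBA, a LIM protein that restrains the LATS kinases, read 5761, 2657, 1571 and 595 (9.68-fold lower). Either gene was lower with each treatment alone than in siNC, and lowest with both. Smaller differences were seen for ASAP1 (-1.87), MYOF (-1.63), FJX1 (-1.44), F3 or tissue factor (-1.39), WWC1 or KIBRA (-1.29), GADD45A (-1.16) and TGFB2 (-1.09), as log2 differences. Without shared probe sets MYOF (-0.79) and WWC1 (-0.91) were under 2-fold. As means over all probe sets of the gene, TGFB2 (-0.63) and WWC1 (-0.51) were under it. Of the members just listed, F3, GADD45A and TGFB2 did not have their lowest value with both treatments. GADD45A, a growth arrest gene, read 16131, 2799, 3979 and 7209, and TGFB2, a ligand, read 4347, 2800, 1423 and 2038.

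Members at less than 2-fold were NT5E (-0.89), RBMS3 (-0.60), CRIM1 (-0.51), GGH (-0.22), LATS2 (-0.06), AXL (-0.05), PTPN14 (0.35) and ARHGEF17 (0.45). CRIM1 passed 2-fold downwards on 1 of 3 probe sets, and PTPN14 on 1 of 4. AXL, a receptor tyrosine kinase, read 21823, 21998, 13973 and 21013, so that it was lower only on the siYT array. IGFBP3, which binds insulin-like growth factors, was higher with 14063, 16215, 23764 and 35782 (2.54-fold). DOCK5, an activator of the GTPase RAC, was the other higher member with 2115, 5412, 2831 and 5190 (2.45-fold). The mean over all DOCK5 probe sets gave 0.97. Among 31 genes of the Hippo pathway itself, 12 were 2-fold lower and 3 were higher, with a median of -0.22, or -0.82 without shared probe sets. These counts include YAP1, WWTR1, AMOTL2, AJUBA and WWC1. Its cofactor VGLL3 (5.32-fold) and the large cadherin FAT4 (5.84-fold) were lower, and the angiomotin AMOTL1 was 5.74-fold higher with 542, 1028, 1892 and 3109.

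A few steroid synthesis genes were far higher. Of 23 members compared, 5 passed 2-fold upwards and 1 downwards, with a median of 0.46, so the large values belong to those 5 genes and not to the whole list. CYP19A1, the aromatase that turns androgens into oestrogens, read 184, 6558, 7213 and 24784 and was 135-fold higher. Its second probe set read 6706 in siYT+8Br-cAMP and was at least 107-fold higher, since siNC was below the floor. Either treatment alone gave a similar intensity, and the array with both was above each.

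CYP11A1, which cuts the side chain of cholesterol to give pregnenolone, followed the same order with 81.4, 1171, 1056 and 4518. It was 55.5-fold higher, from a siNC value near the floor. STAR, which carries cholesterol into mitochondria, read 1284, 37308, 1227 and 33335 and was 26-fold higher. In contrast to both enzymes, STAR was high on the 8Br-cAMP arrays and at the siNC level on the siYT array.

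HSD3B2, the enzyme that makes progesterone from pregnenolone, read 36.9, 364, 179 and 507 and was at least 8.10-fold higher. HSD11B1, which regenerates cortisol, read 230, 316, 2137 and 2728 and was 11.9-fold higher, with high values on both siYT arrays. STARD4, a cytosolic sterol carrier, was the member 2-fold lower, with 1569, 540, 1325 and 313 (5.01-fold). Here the low values were those of the 8Br-cAMP arrays.

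The electron donors of the steroidogenic cytochromes, FDX1 (0.91) and POR (0.90), stayed under 2-fold, and so did the cytochrome b5 gene CYB5A (-0.66). FDX1 nevertheless passed 2-fold upwards on 1 of 3 probe sets, and CYB5A downwards on 2 of 4. Among the 17-beta-hydroxysteroid dehydrogenases, log2 differences were 0.86 for HSD17B4, 0.70 for HSD17B11, -0.21 for HSD17B12, -0.53 for HSD17B8 and -0.62 for HSD17B1. The aldo-keto reductases that inactivate progesterone and convert androgens were near level in this comparison, at 0.06 for AKR1C1, 0.14 for AKR1C2 and -0.15 for AKR1C3. Yet their intensity was highest with 8Br-cAMP alone, as in AKR1C2 with 2824, 9082, 2699 and 3106. The remaining members were SRD5A1 (-0.91), STARD3 (0.61), STS (0.31) and TSPO (-0.01), besides CYP11B1 and HSD3B1, which were at the floor in siNC and under 90 in siYT+8Br-cAMP.

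**Figure D2:**
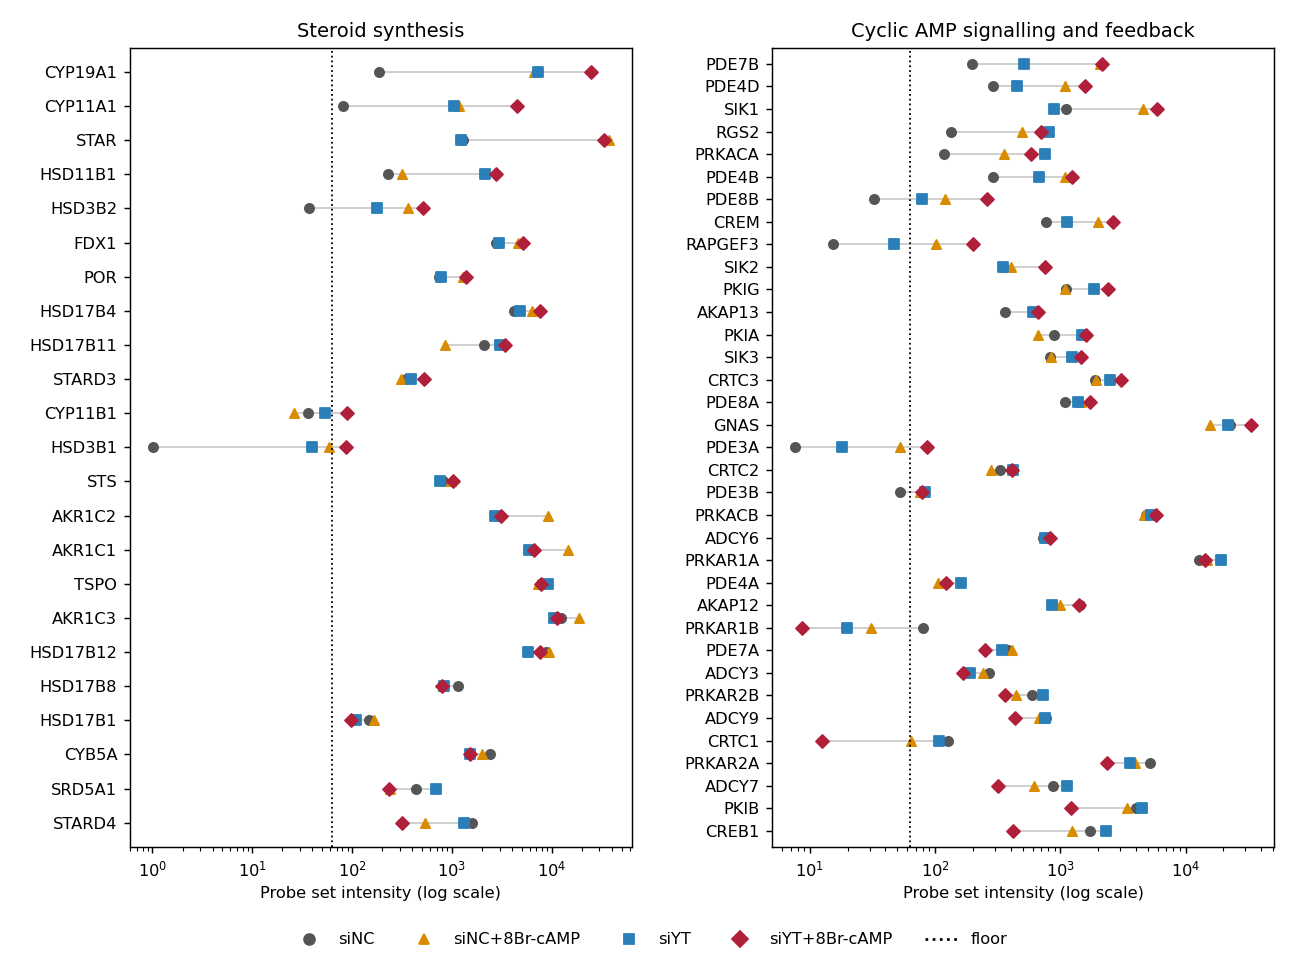
Probe set intensity on a log axis for genes of steroid synthesis and of cyclic AMP signalling on the 4 arrays, 1 point per array, with the floor at 62.6 as a dotted line. CYP19A1 and CYP11A1 are highest with both treatments, while STAR is high on the 8Br-cAMP arrays at 37308 and 33335 and near 1250 on the others.

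Cyclic AMP signalling genes included 11 of 36 at least 2-fold higher and 5 at least 2-fold lower, with a median of 0.40. Many of those higher are known as brakes on the signal. The phosphodiesterases, which break down cyclic AMP, were higher for PDE7B (196, 2086, 509 and 2162, 11-fold), PDE4D (292, 1084, 447 and 1575, 5.4-fold) and PDE4B (291, 1084, 672 and 1231, 4.23-fold). PDE4D passed 2-fold on 2 of 4 measured probe sets, and the mean over all its probe sets gave 0.88. PDE8B was at least 4.11-fold higher, from a siNC value at the floor. In all 4 genes the siNC+8Br-cAMP array was close to siYT+8Br-cAMP or between it and siNC. PDE8A (0.67), PDE7A (-0.62), PDE4A (0.00), PDE3A (at least 1.38-fold higher) and PDE3B (at least 1.25-fold higher) stayed under 2-fold, and PDE10A was at the floor on both arrays.

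Of the kinases that hold back CREB co-activators, SIK1 read 1113, 4585, 887 and 5934 (5.33-fold higher) and SIK2 347, 405, 346 and 752 (2.16-fold higher), while SIK3 had a log2 difference of 0.81. SIK1 passed 2-fold on 1 of 2 probe sets, a shared one, and gave 0.63 on the other. SIK2 passed it on 1 of 3 measured probe sets, and the mean over all its probe sets gave 0.29. RGS2, which shortens G protein signals, read 134, 496, 813 and 700 and was 5.22-fold higher, with all 3 treated arrays above siNC. CREM, a CREB relative with repressor forms, read 768, 1983, 1136 and 2611 (3.40-fold higher). Only 3 of its 6 measured probe sets passed 2-fold upwards and 1 passed it downwards. The cyclic AMP sensor RAPGEF3 was at least 3.19-fold higher.

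Within protein kinase A, the catalytic subunit PRKACA was 5.01-fold higher with 117, 356, 748 and 586, on 1 of 2 measured probe sets, and PRKACB changed little (0.25). The regulatory subunit PRKAR2A was 2.18-fold lower, on 2 of 5 probe sets, and the mean over them gave -0.69. PRKAR1A (0.15) and PRKAR2B (-0.73) stayed under 2-fold, though 1 of 4 PRKAR1A probe sets was 2-fold higher. PRKAR1B was at the floor in siYT+8Br-cAMP. The kinase inhibitor PKIB was 3.25-fold lower (3986, 3411, 4518 and 1225), PKIG was 2.16-fold higher and PKIA had a difference of 0.84. CREB1 itself read 1714, 1229, 2298 and 418, a 4.10-fold lower value that 2 of its 7 probe sets shared. Of the cyclases, ADCY7 was 2.77-fold lower, with ADCY9 (-0.82), ADCY3 (-0.67) and ADCY6 (0.20) under 2-fold. ADCY3 passed 2-fold downwards on 1 of its 2 probe sets. CRTC1 was at least 2.02-fold lower on a shared probe set, and its other probe set gave 0.70 in the opposite direction. CRTC2 (0.33), CRTC3 (0.71), AKAP12 (-0.03), AKAP13 (0.87) and GNAS (0.56) stayed under 2-fold. AKAP13 passed 2-fold upwards on 3 of 8 measured probe sets.

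Of 28 CREB target genes, 12 passed 2-fold upwards and 5 downwards, with a median of 0.68. DIO2, the deiodinase that activates thyroid hormone, read 106, 1566, 73.4 and 4576 and was 43.2-fold higher, on all 5 of its probe sets. It was high with 8Br-cAMP and higher still with both treatments, though the siYT array lay below siNC. The orphan receptor NR4A2 was at least 27.5-fold higher, with 295 and 316 after each treatment alone and 1725 after both. The transcription inhibitor ID1 was 4.21-fold higher (1668, 4405, 2932 and 7024). BTC, an EGF family ligand, was 4.76-fold lower. The other lower members were MAFF (-1.55), KLF4 (-1.29), EGR1 (-1.21) and CITED2 (-1.18). All but BTC are immediate early or co-regulator genes and were named after their values were seen. Each of these 5 passed 2-fold on only 1 measured probe set, of 3 for EGR1 and of 2 for the others. With the floor at the 75th percentile, BTC gave -0.17.

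Of 29 luteal and ovulatory genes, 8 passed 2-fold upwards and 6 downwards, with a median of 0.43. Genes of the cumulus matrix were split. HAS2, which makes hyaluronan, was at least 12-fold higher with 51.0, 259, 211 and 753. PTX3, which cross-links hyaluronan, had the lowest log2 difference of all genes above the floor on both arrays, -6.48. It read 18913, 2940, 3705 and 211, so each treatment alone was lower and both together lowest. The protease ADAMTS1 was 9.76-fold lower (7851, 2900, 622 and 805). PTGS2, the prostaglandin synthase of ovulation, was at least 7.33-fold higher, on 1 of 2 probe sets, with 459 in siYT+8Br-cAMP. The lysosomal protease CTSL was 6.91-fold higher with 6267, 12038, 14665 and 43336.

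Beyond the steroid genes, the 15 highest genes above the floor on both arrays were led by IL11. This interleukin of the IL6 family read 216, 17829, 774 and 42102 and was 195-fold higher, with 25.9-fold on its second probe set. PDK4, the kinase that turns off pyruvate oxidation, read 306, 2925, 868 and 15930 (52.0-fold). DNAJC12, a chaperone of aromatic amino acid hydroxylases, read 332, 4954, 1206 and 12961 (39.0-fold). For all 3 the larger single value was that of 8Br-cAMP, and the combined array was at least 2-fold above it.

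Others among the 15 were higher with the siRNAs alone than with 8Br-cAMP alone. ANGPTL4, an inhibitor of lipoprotein lipase, read 106, 282, 2325 and 3735 (35.3-fold). The transporter ABCA8 read 65.7, 474, 1345 and 1694 (25.8-fold), from a siNC value just above the floor. SERPINA5, the protein C inhibitor, read 86.7, 552, 993 and 1953 (22.5-fold). ABCA8 and SERPINA5 were nevertheless also above siNC with 8Br-cAMP alone, by 7.21-fold and 6.37-fold, and ANGPTL4 by 2.67-fold.

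RASD1, a Ras-like GTPase, read 133, 5241, 491 and 3284 (24.6-fold) and was highest with 8Br-cAMP alone. FPR1, a receptor for formylated peptides, read 465, 4709, 1766 and 9070 (19.5-fold). HOPX, a homeodomain protein without DNA binding, read 71.7, 224, 355 and 2185 (30.5-fold). HOPX differs from RASD1 in that neither treatment alone came near the combined value.

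Among genes at the floor in siNC, the highest besides NR4A2 were P2RX1, an ATP-gated channel (at least 22.5-fold, 1408 in siYT+8Br-cAMP), and NFATC2, a calcium-regulated transcription factor (at least 19.3-fold, 1208). WAKMAR2 (at least 19.1-fold), C11orf96 (at least 12.7-fold) and C7orf57 (at least 12.4-fold) followed. All 6 were above the floor on the siYT array, between 141 for C11orf96 and 316 for NR4A2. C7orf57 was at the floor with 8Br-cAMP alone.

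**Figure D3:**
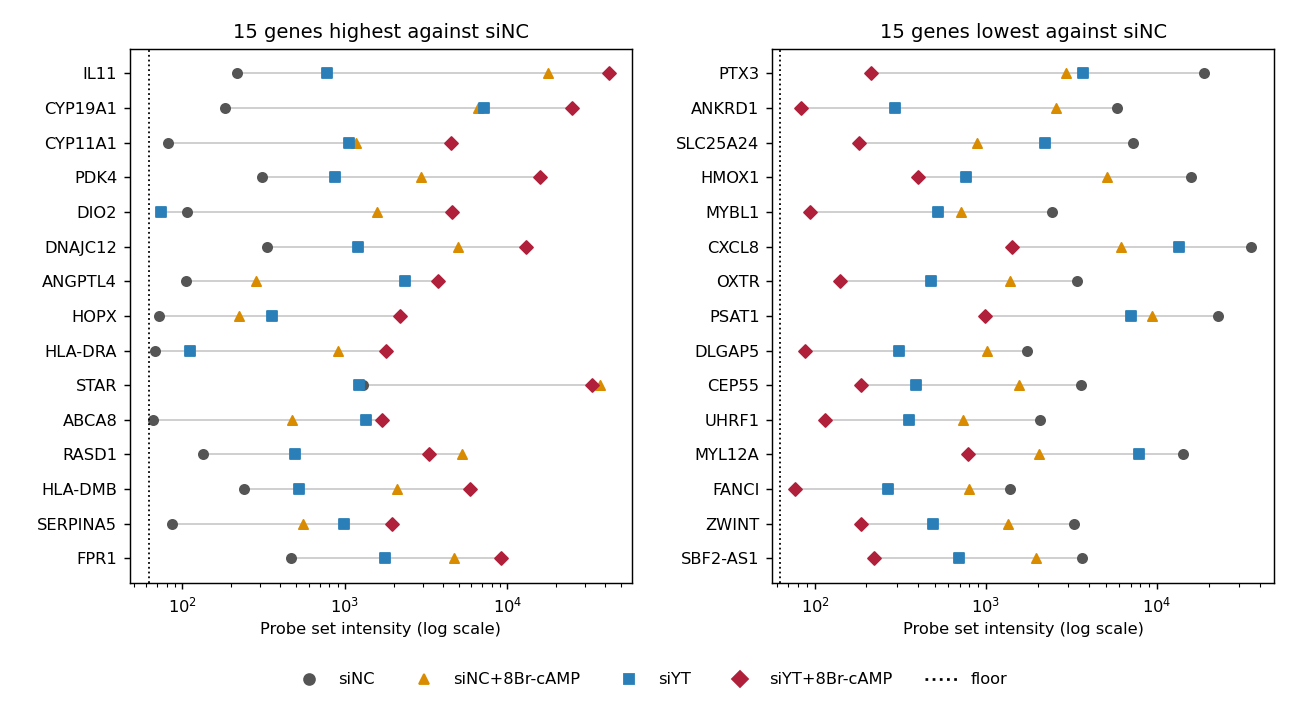
Probe set intensity on a log axis on the 4 arrays, 1 point per array, for the genes with the highest and the lowest log2 difference among those above the floor on siNC and siYT+8Br-cAMP, with the floor as a dotted line. IL11 spans 216 to 42102 and PTX3 spans 18913 to 211.

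After PTX3 and ANKRD1, the lowest genes above the floor on both arrays came from several functions. SLC25A24, a mitochondrial ATP-magnesium carrier, read 7210, 889, 2224 and 181 (39.8-fold lower), on 1 of 2 probe sets at 2-fold. MYBL1, a transcription factor, read 2447, 710, 521 and 93.1 (26.3-fold). OXTR, the oxytocin receptor, read 3407, 1377, 475 and 139 (24.5-fold). In all 3 each treatment alone was lower than siNC and the combined array was lowest.

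MYL12A, a regulatory light chain of non-muscle myosin, read 14130, 2028, 7827 and 785 (18.0-fold lower), and its other 3 probe sets, at the floor in siYT+8Br-cAMP, gave at least 4.05-fold to 8.43-fold. The antisense transcript SBF2-AS1 read 3650, 1955, 691 and 223 (16.4-fold). ZWINT, a kinetochore protein, read 3286, 1337, 493 and 187 (17.6-fold). The rest of the 15 belong to lists described below. Among genes at the floor in siYT+8Br-cAMP, CEMIP, a hyaluronan-degrading protein, was at least 35.4-fold lower with 2214, 246 and 332 on the other arrays. The other 5 all act in or are known from the cell cycle or DNA synthesis: ZNF367 (at least 14.6-fold), the centriole kinase PLK4 (11.8-fold), the licensing factor CDC6 (11.7-fold), the spindle protein CKAP2L (11.7-fold) and cyclin E2, CCNE2 (11.5-fold), each a lower bound.

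Cell cycle genes formed the most uniform group. All 38 G2 and M phase genes were lower in siYT+8Br-cAMP, 37 of them by at least 2-fold, with a median of -2.87 or 7.30-fold. The exception, PLK1, read 70.9 in siNC and was at the floor in siYT+8Br-cAMP, so it could not have shown a 2-fold lower value. Over single treatments the list's median was -2.37 for siYT and -0.78 for siNC+8Br-cAMP, each against the same siNC array. DLGAP5, a microtubule-binding protein, read 1728, 1015, 310 and 87.7 (19.7-fold lower), and CEP55, which acts in the last step of cell division, read 3585, 1558, 391 and 185 (19.3-fold). The hyaluronan and spindle protein HMMR read 4294, 1300, 590 and 267 (16.1-fold). These 3 genes had their values in one order, with siNC highest, then siNC+8Br-cAMP, then siYT, and siYT+8Br-cAMP lowest.

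The cytokinesis scaffold ANLN was 11.8-fold lower and the kinetochore gene NDC80 10.9-fold. Of the other genes whose promoters are printed above, CCNB2, a cyclin of mitosis, read 2876, 1950, 551 and 401 (7.17-fold lower) and CDC20, an activator of the anaphase-promoting complex, 1657, 741, 328 and 245 (6.76-fold). MKI67, the Ki-67 proliferation antigen, named after its value was seen, read 563, 513, 186 and 213. It was 2.64-fold lower, on 4 of 4 probe sets, and its 2 siYT arrays were close to each other.

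All 37 DNA replication and S phase genes were lower as well, 29 by at least 2-fold, with a median of -1.66. UHRF1, which maintains DNA methylation after replication, read 2067, 737, 356 and 114 (18.2-fold lower). GINS1, a helicase subunit, read 1165, 421, 276 and 73.0 (15.9-fold), and TYMS, the thymidylate synthase, 13940, 6175, 2256 and 1081 (12.9-fold). The order of the arrays was that of the mitotic genes.

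Of 18 homologous recombination and Fanconi genes, 11 were 2-fold lower and 2 higher, with a median of -1.69. FANCI was 18.0-fold lower (1374, 799, 269 and 76.5), BARD1 9.13-fold, RAD51AP1 8.50-fold, BRCA1 8.06-fold and the exonuclease EXO1 at least 8.54-fold. Those higher were XRCC2 (1.41) and the kinase ATM (1.23), named after their values were seen. Many of these genes lay near the floor in siYT+8Br-cAMP, and the list's median moved from -0.46 to -2.62 with the treatment of low values.

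Genes of arrest were not raised as a group. Of 23 cell cycle arrest and p53 genes, 9 were 2-fold lower and 1 was higher, with a median of -0.43. CDKN1C, the p57 inhibitor of cyclin-dependent kinases, was 4.22-fold higher (86.6, 298, 188 and 365), on 2 of 4 measured probe sets. PLK2 was 10.3-fold lower (18397, 10709, 1972 and 1789), and RBL2, a relative of RB, was 4.93-fold lower, with 2014, 2971, 2625 and 409, although it was above siNC on both single-treatment arrays. RBL2 passed 2-fold on 1 of 2 probe sets. TP53I3 was 4.57-fold lower. GADD45B was 3.77-fold lower on 1 of 4 probe sets, and without shared probe sets its difference was 0.14.

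Actin and contractile genes were 2-fold lower in 15 of 29 and 2-fold higher in 0, with a median of -1.12. TAGLN, the smooth muscle actin-binding protein SM22, read 2444, 1017, 753 and 224 (10.9-fold lower). Smooth muscle actin, ACTA2, read 11044, 3311, 3172 and 1026 (10.8-fold), and calponin, CNN1, 1509, 519, 352 and 148 (10.2-fold). All 3 were lower with either treatment and lowest with both. The formin DIAPH3 was 5.87-fold lower. PDLIM7 was 4.95-fold lower on its brightest probe set, but it gave 0.57 under quantile normalization and 0.43 without shared probe sets, so its direction is not settled.

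Matrix genes went mostly the other way. Of 37 collagens and collagen enzymes, 12 were at least 2-fold higher and 1 was lower, with a median of 0.55. PLOD2, a lysyl hydroxylase, read 8793, 18944, 24621 and 47312 (5.38-fold higher), and the prolyl hydroxylase subunit P4HA3 was 3.87-fold higher. The basement membrane chain COL4A6 read 346, 889, 1486 and 1764 (5.10-fold) and COL4A2 15406, 15131, 20630 and 43139 (2.80-fold). COL1A1, the main chain of fibrillar collagen, was the member that was lower, with 35932, 28686, 36702 and 6926 (5.19-fold, on 4 of 4 probe sets). It was near its siNC level on both single-treatment arrays, while COL1A2, its partner chain, named after its value was seen, was 2-fold higher (1.04).

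Of 30 laminins, proteoglycans and matrix glycoproteins, 9 were 2-fold higher and 3 lower, with a median of 0.33. The small proteoglycans LUM (276, 434, 3355 and 3698, 13.4-fold) and DCN (165, 279, 1068 and 876, 5.30-fold) were higher, as were the calcification inhibitor MGP (5.94-fold) and the basement membrane protein NID2 (5.85-fold). MGP passed 2-fold on 1 of 2 probe sets, a shared one, and gave 0.10 without it. In LUM and DCN the 2 siYT arrays were alike and well above the 2 siNC arrays. THBS1, thrombospondin, a growth factor-activating glycoprotein, was 12.2-fold lower (22894, 6591, 3690 and 1880).

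Integrins and focal adhesion genes were balanced, with 3 of 23 higher, 3 lower and a median of 0.09. ITGA1, a collagen receptor chain, was 4.73-fold higher (260, 1006, 2365 and 1229) and ITGA7, a laminin receptor chain, 4.67-fold higher. TNS1 was 2.10-fold higher, on 2 of 4 measured probe sets. It gave 0.68 as the mean over all its probe sets and 0.99 under cyclic loess. ITGAV was 2.20-fold lower and PARVA 2.52-fold lower, the latter on 3 of 7 probe sets and with 0.60 without shared probe sets. Matrix proteases and their inhibitors were 2-fold higher in 4 of 28 and lower in 6, with a median of 0.19. Urokinase, PLAU, was 8.34-fold lower (2451, 1403, 820 and 294), ADAMTS5 was at least 5.20-fold lower and MMP16 was 4.28-fold higher.

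Of 26 adhesion and junction genes, 4 were higher and 5 lower, with a median of -0.12. The tight junction claudins on the list that moved most were lower, CLDN1 with 6074, 1250, 3856 and 580 (10.5-fold) and CLDN11 with 25029, 11099, 5792 and 2638 (9.49-fold). The keratin KRT18 read 48635, 69798, 10098 and 10131 (4.80-fold lower), with both siYT arrays alike. The gap junction gene GJA1 read 17777, 33937, 39368 and 71420 (4.02-fold higher), and the cadherin CDH11 was 3.37-fold higher on 4 of 4 probe sets.

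Chemokines and inflammatory cytokines other than IL11 were mainly lower. Of 30 list members, 15 were 2-fold lower and 5 were higher, with a median of -0.93. CXCL8, the neutrophil chemokine, read 35516, 6171, 13481 and 1416 (25.1-fold lower), and CXCL3 3050, 464, 992 and 197 (15.5-fold). The adhesion molecule VCAM1 read 6562, 1589, 3363 and 571 (11.5-fold). In these the siNC+8Br-cAMP array was below the siYT array, and the combined array lowest.

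IL6 read 21840, 28316, 4212 and 1985 (11-fold lower), so that here the siYT arrays were the low ones. Both IL6 and IL11 belong to one cytokine family, and they lay at opposite ends of this comparison. Besides IL11 and PTGS2, the higher members were TNFAIP3 (2.01), IL1R1 (1.97) and IL1B (1.63), named after their values were seen.

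Of 39 interferon-stimulated and antigen presentation genes, 11 were 2-fold higher and 11 lower, with a median of -0.24. The members with the largest higher values act in class II presentation. HLA-DRA, a class II chain, read 67.5, 901, 111 and 1790 (26.5-fold higher). HLA-DMB, a chain of the class II peptide loader, read 239, 2101, 522 and 5872 (24.6-fold), and its partner HLA-DMA was 7.68-fold higher. The invariant chain CD74 read 378, 1405, 742 and 2806 (7.43-fold). In these genes the siNC+8Br-cAMP array was above the siYT array and the combined array was highest.

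CIITA, the class II transactivator, was at the floor in siNC and read 220 with 8Br-cAMP and 161 with both treatments, at least 2.58-fold higher, on 1 of 2 probe sets. The class I chains HLA-B (2.64-fold) and HLA-C (2.02-fold) and the light chain B2M (2.07-fold) were higher too, on 3 of 3, 1 of 4 and 1 of 3 probe sets. The lower members include the interferon-stimulated genes IFIT2 with 800, 170, 445 and 106 (7.56-fold), TRIM22 (-2.70), IFIT3 (-2.48), MX1 (-2.13) and IFIT1 (-1.74), while IFI6 was higher (1.88). Apart from IFIT2, the genes of these sentences were named after their values were seen. The leukocyte marker PTPRC read 80.0 in siYT+8Br-cAMP, 1 of 3 leukocyte markers above the floor there, while CD14 and CD3E were below it.

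Amino acid supply genes controlled by ATF4, the transcription factor of the amino acid response, were 2-fold lower in 18 of 31 and higher in 2, with a median of -1.42. PSAT1 of serine synthesis read 22830, 9366, 7053 and 984 (23.2-fold lower). CBS, which condenses serine with homocysteine, read 1412, 521, 562 and 86.8 (16.3-fold), and asparagine synthetase, ASNS, 11647, 3427, 3247 and 995 (11.7-fold). For all 3 both single treatments gave similar lower values and the combination a lower one.

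The cystine carrier SLC7A11 was 11-fold lower (16641, 9869, 4479 and 1519) and CHAC1, a glutathione-degrading enzyme, 8.58-fold. The transcript of ATF4 itself was lower by a log2 difference of -1.18. SLC7A5, a carrier of large neutral amino acids, went against the list with 1799, 1305, 1857 and 6434 (3.58-fold higher). The other higher member was CTH (1.06), which was, like ATF4, named after its value was seen.

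Of 30 NRF2 and oxidant defence genes, 8 were lower and 2 higher, with a median of -0.33. HMOX1, haem oxygenase, read 15720, 5115, 769 and 400 (39.3-fold lower). GCLM, a subunit of glutathione synthesis, was 6.73-fold lower on 3 of 3 probe sets (12672, 7918, 4039 and 1884), and thioredoxin, TXN, was 4.13-fold lower, or -0.86 on the log2 scale without shared probe sets. In HMOX1 and GCLM the siYT array was below the siNC+8Br-cAMP array. The plasma glutathione peroxidase GPX3 was 3.46-fold higher. Genes of folding in the endoplasmic reticulum were higher in 6 of 24 and lower in 2, with a median of 0.68, led by the chaperone HYOU1 (3743, 6645, 7348 and 11577, 3.09-fold), CRELD2 (3.03-fold) and DNAJC3 (2.68-fold). DNAJC3 passed 2-fold on 1 of 4 probe sets, and the mean over them gave 0.66.

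Glycolysis and hypoxia response genes were 2-fold higher in 14 of 36 and lower in 0, with a median of 0.92. PDK4 and ANGPTL4 were the largest. NDRG1, a hypoxia-responsive gene, read 3419, 5161, 14104 and 24835 (7.26-fold), and the carbonic anhydrase CA12 read 2797, 3165, 8942 and 10893 (3.89-fold). PDK3 was at least 4.80-fold higher, on 1 of 4 measured probe sets. In NDRG1, CA12 and PDK3 the siYT arrays held the high values.

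Of 33 genes of fatty acid use and lipid storage, 10 were higher and 6 lower, with a median of 0.34. The lipid droplet proteins HILPDA (782, 742, 3221 and 6772, 8.66-fold) and PLIN2 (1164, 1511, 5442 and 5540, 4.76-fold) were higher. The fatty acid binding proteins FABP3 (6.49-fold) and FABP5 (3.83-fold) and the elongase ELOVL6 (4.80-fold, with 1 of 3 probe sets 2-fold the other way) were lower. These droplet genes and binding proteins went in opposite directions.

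Cholesterol synthesis and uptake genes had a median of -0.06, with 3 of 27 higher and 5 lower. ACAT2, the cytosolic thiolase at the start of the pathway, read 2208, 1006, 635 and 198 (11.1-fold lower), and LSS, lanosterol synthase, 3534, 624, 2714 and 611 (5.78-fold). IDI1 was 2.45-fold lower on 2 of 4 probe sets, with 0.40 without shared ones. INSIG2, which holds the pathway back, was 2.95-fold higher.

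Subunits of oxidative phosphorylation were 2-fold higher in 4 of 35 and lower in 0, with a median of 0.55. The share of higher members, 11.4%, was close to the 10.8% of all genes, while 29 of the 35 had a positive difference. COX7B was 2.76-fold higher (13012, 19042, 14295 and 35926). NDUFA8 was 2.06-fold higher and UQCRC1 had a difference of 0.95. NDUFA2 (2.60-fold) and UQCRC2 (2.25-fold) were higher on 1 of 2 probe sets each, and gave -0.40 and -0.044 without shared probe sets. Cytosolic ribosomal protein genes had a median of 0.27, which became -0.18 under quantile normalization and -0.08 under cyclic loess, so no direction is given for them. Only RPL32 reached 2-fold (2.01-fold higher) of 30.

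**Figure D4:**
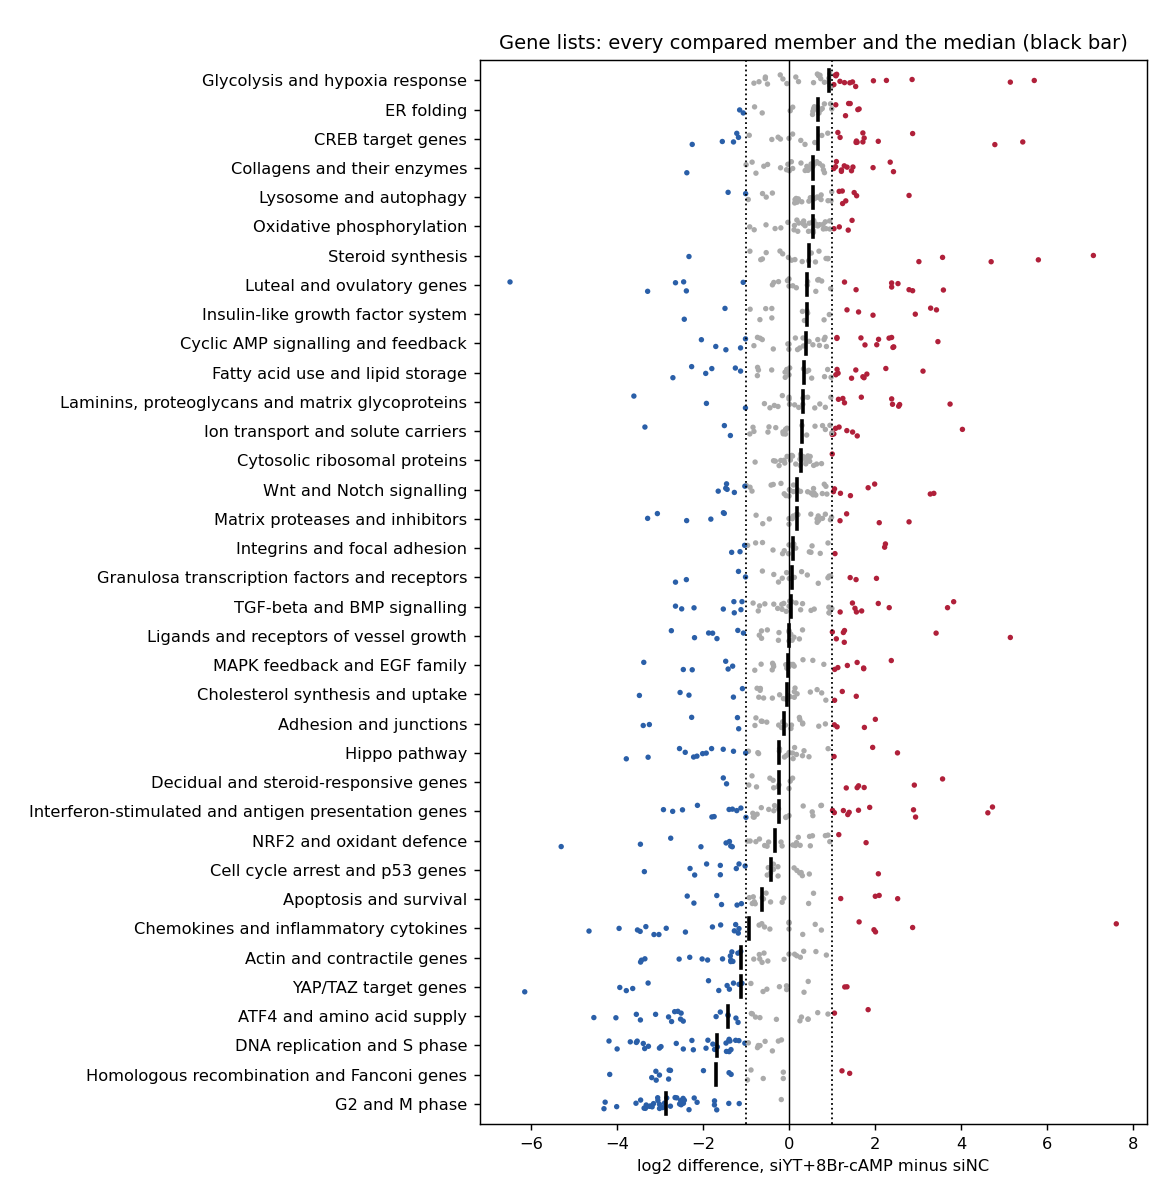
Log2 difference, siYT+8Br-cAMP minus siNC, of every compared member of the 36 gene lists (points), with the median of each list as a black bar. The G2 and M phase list lies wholly below 0 with a median of -2.87, and the glycolysis and hypoxia list has the highest median at 0.92.

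Of 40 TGF-beta and BMP genes, 9 were higher and 8 lower, with a median of 0.04. BMP6 read 132, 314, 331 and 1878 (14.2-fold higher) and TGFB3 90.3, 386, 157 and 1161 (12.9-fold), both ligands. BMP6 passed 2-fold on 1 of 2 measured probe sets. The signal carrier SMAD2 was 5.02-fold higher (3708, 11163, 4968 and 18628), on 4 of 6 probe sets. Lower members include a pair of extracellular antagonists, follistatin, FST (19442, 6136, 4236 and 3122, 6.23-fold), and gremlin, GREM1 (at least 5.64-fold).

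Insulin-like growth factor genes were higher in 6 of 19 and lower in 2, with a median of 0.41. The binding protein IGFBP4 read 531, 6269, 509 and 5200 (9.79-fold higher), which follows 8Br-cAMP, and IGFBP5 read 147, 1031, 2239 and 1586 (10.8-fold), with all 3 treated arrays high. STC1, which inhibits the protease that cuts IGFBP4, was 7.65-fold higher. The receptor IGF1R was 3.87-fold higher on 3 of 4 probe sets, with 1 the other way, and the receptor substrate IRS1 was 5.41-fold lower.

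Of 28 MAPK feedback and EGF family genes, 7 were higher and 6 lower, with a median of -0.03. ERBB3, a receptor of this family, was at least 10.4-fold lower (650, 306 and 182 on the other arrays), and the phosphatase DUSP14 was 5.49-fold lower. PHLDA1 (5.19-fold) and IER3 (3.33-fold) were higher, PHLDA1 on 3 of 6 probe sets and with 0.56 as the mean over them. Of 39 Wnt and Notch genes, 8 were higher and 6 lower, with a median of 0.20. SFRP1, a secreted Wnt antagonist, read 520, 2694, 416 and 5065 (9.74-fold higher), and the Wnt receptor FZD6 was 3.13-fold lower. RSPO3 (at least 3.97-fold) and AXIN2 (at least 3.58-fold) were higher from the floor. AXIN2 passed 2-fold on 1 of 3 measured probe sets, and the mean over all its probe sets gave 0.74. HES1, a Notch effector, was 10.3-fold higher on 1 of 3 probe sets and at -0.039 without shared ones.

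Of 28 ligands and receptors of vessel growth, 7 were higher and 7 lower, with a median of 0. After ANGPTL4, the ligand PDGFD was 10.7-fold higher (549, 1359, 3317 and 5872). Endothelin, EDN1 (6.66-fold), FGF2 (3.65-fold) and the receptor KDR (at least 4.58-fold) were lower. Of 20 granulosa transcription factors and receptors, 3 were higher and 4 lower, with a median of 0.06. FOXL2 (2.68-fold), the inhibin subunit INHA (2.95-fold) and NR2F1 (4.09-fold) were higher, and RUNX2 was 5.23-fold lower (720, 323, 839 and 138). The 19 decidual and steroid-responsive genes had 6 higher and 2 lower with a median of -0.23 that changes sign with the setting. Those higher include CRISPLD2 (177, 1105, 140 and 1329, 7.53-fold), the kinase SGK1 (3.36-fold), IGFBP1 (3.07-fold) and DUSP1 (3.0-fold).

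Lysosome and autophagy genes were higher in 7 of 30 and lower in 2, with a median of 0.55. Besides CTSL, these were led by WIPI1 (2.97-fold), the protease CTSA (2.86-fold) and the channel MCOLN1 (2.50-fold), and the autophagy receptor SQSTM1 was 2.67-fold lower. Apoptosis and survival genes were higher in 4 of 23 and lower in 6, with a median of -0.62. The death-promoting BH3-only genes BCL2L11 (519, 1335, 1275 and 2220, 4.27-fold) and BMF (at least 5.76-fold) were higher, and so was the death ligand TNFSF10 (4.01-fold). The survival gene BCL2 (at least 5.15-fold) and the caspase CASP6 (4.63-fold) were lower. BCL2L11 passed 2-fold on 2 of 7 measured probe sets and BCL2 on 1 of 2. As means over all probe sets of the gene, their log2 differences were 0.91 and -0.56. With the floor at the 75th percentile, BMF and BCL2 gave 0 and CASP6 gave -0.34.

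Ion and solute transport genes were higher in 9 of 31 and lower in 3, with a median of 0.30. The creatine carrier SLC6A8 read 127, 260, 1114 and 2070 (16.3-fold higher), on 3 of 3 probe sets. The potassium channel KCNQ5 was at least 10.2-fold lower and the monocarboxylate carrier SLC16A7 2.83-fold lower. SLC7A2 was at least 2.78-fold higher from the floor, on 1 of 2 measured probe sets. ATP2B4, a calcium pump, was 3.0-fold higher on 1 of 3 probe sets and at -0.065 without shared ones.

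Genes for which neither treatment alone gave the combined value were ranked by the smallest gap between siYT+8Br-cAMP and any other array. This choice uses the combined array, so the gaps are a description. Furthest above all others were HOPX, with a gap of 2.62 on the log2 scale to the next array, BMP6 (2.50), PDK4 (2.45), GDF15 (2.27) and ITPRIP (2.20). GDF15, a stress-induced cytokine, read 5872, 12448, 11562 and 59871, and ITPRIP, a modulator of the inositol trisphosphate receptor, 448, 1576, 1061 and 7226. CYP11A1 (1.95), CAMK2N1 (1.87), SLC7A5 (1.79), CYP19A1 (1.78) and CSGALNACT1 (1.74) completed the 10.

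CAMK2N1, an inhibitor of calmodulin-dependent kinase II, read 1440, 1597, 1561 and 5838, so that only the combined array was raised on this probe set. It passed 2-fold on 2 of 3 probe sets. The second of these read 169, 251, 268 and 358, so there each treatment alone was above siNC as well. CSGALNACT1, which starts chondroitin sulphate chains, read 380, 1534, 1640 and 5480. Unlike the brightest CAMK2N1 probe set, it was raised by each treatment alone and again by both. BMP6, GDF15 and CSGALNACT1 each passed 2-fold on 1 of 2 measured probe sets. Their other probe sets gave log2 differences of 0.28, 0.85 and 0.21, with siNC at the floor for BMP6 and CSGALNACT1.

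**Figure D5:**
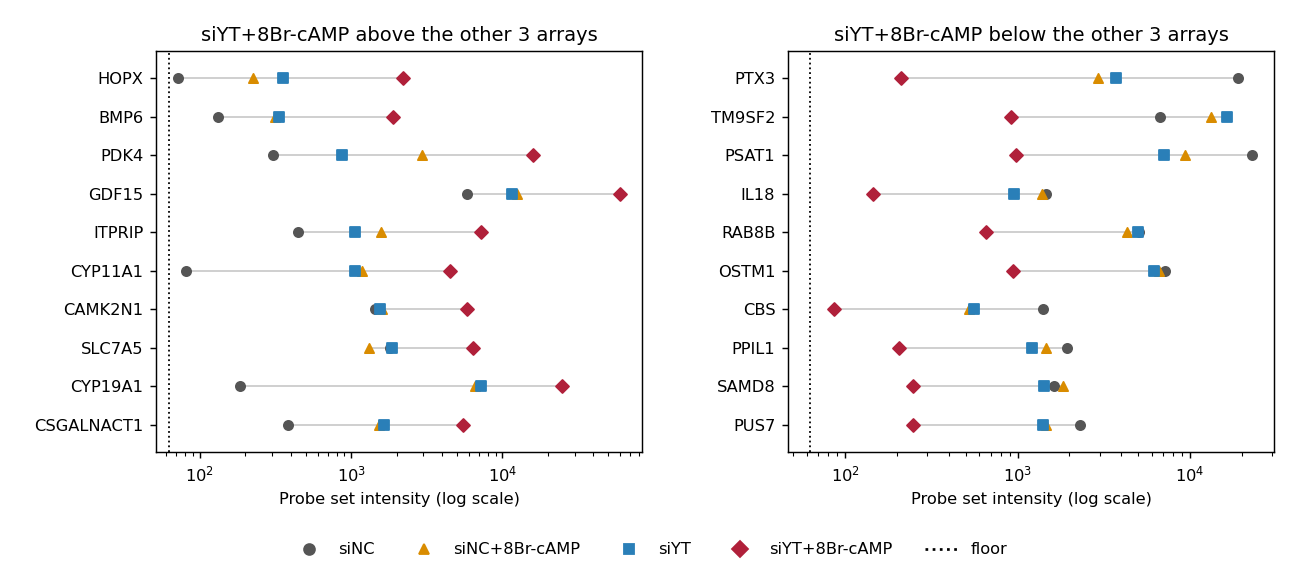
Probe set intensity on a log axis on the 4 arrays, 1 point per array, for the 10 genes whose siYT+8Br-cAMP value lay furthest above and the 10 whose value lay furthest below all other arrays. The siYT+8Br-cAMP point is detached from the other 3 in each gene by construction, as in CAMK2N1 at 5838 against 1440 to 1597 and TM9SF2 at 916 against 6669 to 16339.

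Furthest below all others were PTX3 (13.9-fold below the next array), TM9SF2 (7.28-fold), PSAT1 (7.17-fold), IL18 (6.61-fold), RAB8B (6.57-fold), OSTM1 (6.54-fold), CBS (6.01-fold), PPIL1 (5.91-fold), SAMD8 (5.8-fold) and PUS7 (5.71-fold). TM9SF2, a Golgi and endosome membrane protein, read 6669, 13299, 16339 and 916, and was thus higher with each treatment alone and lower with both. IL18, an inflammatory cytokine, read 1457, 1379, 958 and 145. Both are measured by a single probe set with a symbol of their own.

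Several of these low values were not shared by the gene's other probe sets. RAB8B, a vesicle GTPase, read 5077, 4315, 4958 and 657 on its brightest probe set, and its other probe sets gave log2 differences of 0.33 and -0.30. OSTM1, a lysosomal chloride channel subunit, read 7159, 6630, 6186 and 945, and its others gave 0.55, 0.17 and -0.81. SAMD8, a sphingolipid enzyme, read 1617, 1826, 1430 and 247, against -0.23 on its second probe set. PSAT1 and CBS were lower by 7.10-fold to 26.7-fold on all their measured probe sets, 2 each. The pseudouridine synthase PUS7 (2300, 1463, 1411 and 247) and the spliceosomal isomerase PPIL1 (1937, 1467, 1217 and 206) had no second measured probe set.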

How the data were processed

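Total RNA from KGN cells was labelled with a 3' in vitro transcription kit and hybridised to 4 Affymetrix HG-U133 Plus 2.0 arrays, per the labels' protocols. The deposited values are probe set intensities on a linear scale. RMA and Affymetrix Expression Console were used, per the submitters' processing notes, and neither version is known here. The values are not log scaled, run from 0.081 to 147293 and have a 2% trimmed mean of 500.1 on each array, so background correction and summary by the authors remain unknown. The median intensity was 56.9 on the siNC array and between 62.6 and 66.3 on the others. With 1 array per group, the number of arrays limits the precision, and no p-value was computed.

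Values under the table median were set to it before log2. Of the probe sets, 41097 had 1 symbol in the platform annotation, 1801 had several and 11777 had none here. Gene identifiers matched RefSeq for 41043 and changed 0 symbols. Of a gene's probe sets, the one whose floored log2 values had the highest mean over the 4 arrays was used. This replaced the highest mean intensity after both had been computed, and both are given. Promoters are the first start listed per symbol in the RefSeq table. Members, gene lists and rules were chosen with earlier results of these data known, and some genes are in several lists. Named were the siRNA targets, the 15 highest and 15 lowest genes above the floor on both arrays, the 6 most extreme with 1 array at the floor, the 10 furthest above and below all other arrays, all members of the YAP/TAZ target, steroid and cyclic AMP lists, and up to 5 of each other list with the largest difference. Other genes were named after their values were seen. Alternatives were no floor with 16 added, a floor at the 75th percentile (388.7), means over probe sets, removal of probe sets whose identifiers end in _s_at, _x_at or _a_at (called shared), quantile and cyclic loess normalization, no filter and 1.5-fold. Tools were Python 3.11.15, pandas 2.3.3, numpy 2.4.6, R 4.3.3 and limma 3.58.1 (cyclic loess only).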

Additional observations from a re-analysis of the deposited data

How the results depend on the processing

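No paired analysis was possible because each group held 1 array, and for the same reason no replicate could be left out. Of 18 recomputed counts of 2-fold genes, 13 stayed within 1.5 times the reported ones. The others were 937 higher and 1107 lower with the floor at the 75th percentile, 963 higher with the mean over probe sets, and 3242 higher and 3461 lower at 1.5-fold. The share of 2-fold genes that were higher was 44.0% as reported and 42.0% to 48.0% otherwise. With the probe set of highest mean intensity, chosen after seeing the data, the counts were 1584 and 2016. Among 288 list medians, 283 moved by less than 0.59. The median of the recombination and Fanconi genes was -2.62 with no floor, -0.46 with the floor at the 75th percentile and -2.37 without shared probe sets. The G2 and M phase median was -2.08 with the floor at the 75th percentile and the Hippo median -0.82 without shared probe sets. Medians of the ribosomal, decidual, ion transport, vessel growth, MAPK and Wnt and Notch lists changed sign under at least 1 setting. Of 1838 values of named genes, 247 moved by 0.59 or more and 11 reversed. Without shared probe sets the log2 differences became -1.01 for CREM, 0.70 for CRTC1, 0.40 for IDI1, 0.14 for GADD45B, 0.43 for PDLIM7, 0.60 for PARVA, -0.40 for NDUFA2, -0.044 for UQCRC2, -0.039 for HES1 and -0.065 for ATP2B4. PDLIM7 was 0.57 after quantile normalization. Of 219 named genes past 2-fold, 37 were under it with the floor at the 75th percentile, 35 with the mean over probe sets, 3 after quantile normalization and 2 after cyclic loess, and so were 24 of the 179 with unshared probe sets. The cause of these moves was not tested. Signal near the floor limits genes such as CYP11A1 in siNC and ANKRD1 in siYT+8Br-cAMP.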
